A study of Mus musculus with 4 samples.

Results

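The NR4A and EGR genes examined here are 6 transcription factor genes, *Nr4a1*, *Nr4a2*, *Nr4a3*, *Egr1*, *Egr2* and *Egr3*, which were chosen by name. All 6 were found by symbol among the 25239 genes of the count table. They were measured by bulk RNA-seq in NKT cells, a T cell type whose receptor sees lipids on CD1d, taken from the small intestinal lamina propria (SI-LP) of untreated WT C57BL/6Jax mice. The animals of the study were 7 to 10 weeks old, of both sexes, and received an anti-ARTC2 nanobody before the tissue was taken, so all libraries share this injection and the enzymatic digestion of the gut. The sort kept live TCRβ+ cells that bound the PBS-57-loaded CD1d tetramer and lacked B220, CD11b, CD11c and CD8. There were 4 libraries. The sample titles mark replicates 3 and 4 as First and replicates 1 and 2 as Second. These groups are called the first and the second experiment here, although the titles do not say what the words stand for. The 4 libraries form 1 condition, and the labels do not say whether a library was made from 1 mouse or from a pool, so the spread between replicates may be partly technical. NKT cells of lymphoid tissues are not analysed here.

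The NR4A proteins are orphan nuclear receptors that bind DNA without a known hormone, and the EGR proteins are zinc finger factors. Genes of both families are immediate early genes, that is, they are transcribed within minutes of a stimulus without new protein synthesis. In T cells, the T cell receptor reaches them through calcium, which activates calcineurin and NFAT, and through the MAP kinases, which act on SRF and its ELK partners. *Nr4a1* is widely used as a reporter of recent antigen receptor signalling, and *Egr2* and *Egr3* are known for their part in the development of NKT cells, in which *Egr2* acts upstream of *Zbtb16* (PLZF). Stress, growth factors and tissue digestion also induce some of these genes in many cell types, epithelial cells among them.

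The libraries held between 3882803 and 8732858 counts each, and 3 counts, the smallest level taken as shown, stand for 0.344 to 0.773 CPM before scaling. Levels between libraries are given as CPM, counts brought to a common library size with edgeR's TMM factors, and levels between genes as TPM, which also corrects for the gene lengths deposited with the counts. The 10 T and NKT cell markers (such as *Cd3e*) summed to 1319 to 5775 CPM and were lowest in replicates 2 and 4. *Cd3e* was at 619 to 2096 CPM in all libraries, whereas *Cd8a* and *Cd8b1*, excluded by the sort, had at most 12 counts and 1 count. The 21 epithelial markers, all of which had counts, summed to 976, 10378, 243 and 29330 CPM in replicates 1 to 4. *Lyz1*, a Paneth cell gene, made up 72.5% of the sum in replicate 4, and without it, a choice made after seeing the data, the sums were 673, 10038, 232 and 8071 CPM. Plasma cell markers (6 of 6 detected) summed to 6599 and 7051 CPM in replicates 1 and 2 and to 140 and 379 CPM in replicates 3 and 4. *Jchain* made up most of the sums in replicates 1 and 2 (6131 and 6417 CPM), and *Xbp1* most of that in replicate 3 (134 CPM). In bulk RNA, fewer cells of a type and less RNA per cell cannot be told apart. All 6 genes had at least 10 counts in each library and so passed the filter on low counts, which asked for 10 counts or more in 2 libraries and left 11689 genes.

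The NR4A transcripts were abundant in SI-LP NKT cells. *Nr4a3* (GRCm38 chromosome 4, 48045305 to 48086446) was measured at 1817, 352, 1966 and 1056 CPM in replicates 1 to 4, a mean of 1298 ± 746 CPM (SD, n = 4). *Nr4a1* (chromosome 15, 101266846 to 101274794) had 839, 417, 1216 and 753 CPM, a mean of 806 ± 328 CPM. *Nr4a2* (chromosome 2, 57107226 to 57124003) had 109, 48.8, 95.1 and 83 CPM, a mean of 84.0 ± 25.7 CPM. For all 3 genes replicate 2 was the lowest library and replicates 1 and 3 were the highest. The highest library exceeded the lowest by 2.23-fold for *Nr4a2*, 2.91-fold for *Nr4a1* and 5.58-fold for *Nr4a3*, while the median of this ratio was 3.26 over the 8089 genes that had 10 or more counts in every library. Without replicate 2, the ratios were 1.31 for *Nr4a2*, 1.61 for *Nr4a1* and 1.86 for *Nr4a3*.

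Corrected for gene length, *Nr4a1* was the highest of the 3 genes, with 1012, 516, 1201 and 749 TPM. *Nr4a3* followed with 810, 161, 718 and 388 TPM, and its level was below that of *Nr4a1* in all 4 libraries, by 1.25-fold to 3.21-fold. *Nr4a1* made up 52.7% to 71.5% of the summed NR4A TPM of a library, *Nr4a3* 22.3% to 42.2% and *Nr4a2* 3.50% to 6.19%. Without the length correction *Nr4a3* came first by its mean and in 3 of the 4 libraries (not in replicate 2), and its deposited length (6702 bases, the union of the exons of several isoforms) is larger than that of *Nr4a1* (2476 bases). Among the tested genes, *Nr4a1* stood at TPM percentiles between 97.8 and 99.1 in single libraries, *Nr4a3* between 91.0 and 98.6 and *Nr4a2* between 65.6 and 83.2.

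**Figure D1:**
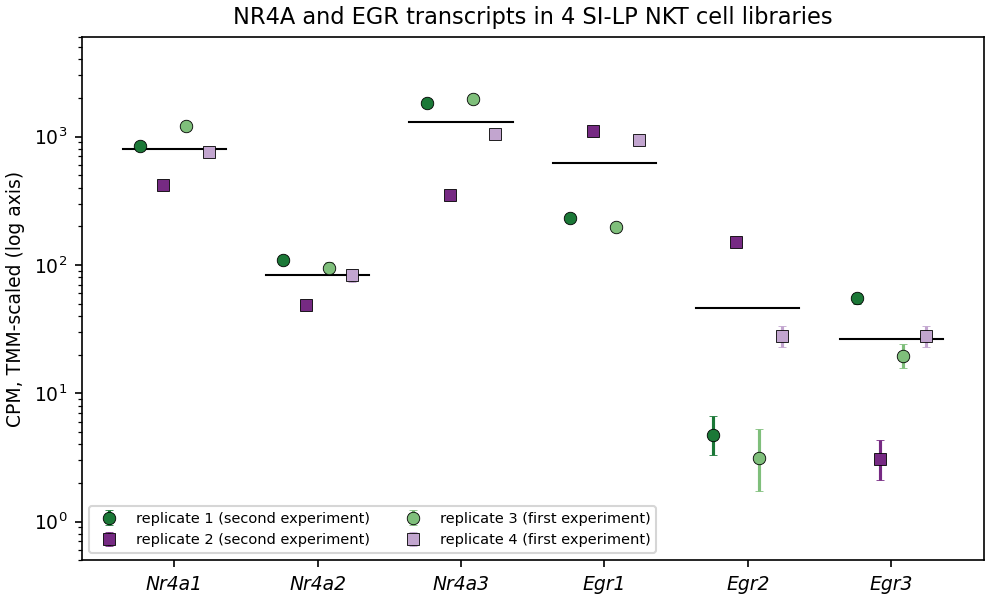
Levels of the 6 transcripts by library, as TMM-scaled CPM on a log axis, with 95% exact Poisson intervals of the counts (counting error only) as bars and the mean of the 4 libraries as a line; circles are replicates 1 and 3 and squares replicates 2 and 4. The squares lie below the circles for *Nr4a1* to *Nr4a3*, and far above them for *Egr1* and *Egr2*, where *Egr2* runs from 3.14 to 150 CPM.

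The 3 NR4A genes also had a sequence feature in common. In the 250 bases before 1 listed start site, each holds 4 copies of the short motif of the cAMP response element (CRE), which CREB family factors bind, written TGACG or, on the other strand, CGTCA. The sites are 101266846 for *Nr4a1*, 57124003 for *Nr4a2* and 48045305 for *Nr4a3*. RefSeq begins *Nr4a1* further upstream, at 101253902, and *Nr4a3* at 48045078, so that most of the *Nr4a3* window lies inside the gene. Windows before those 2 positions were not examined. Among all 32851 promoter windows of this length in the RefSeq table (GRCm38.p6), 17.8% held at least 1 copy and 0.137% at least 4. The number 4 was taken from these windows after they were seen. Of the windows, 5587 had a GC content of at least 65%, and 0.358% of these held at least 4 copies; the GC content of the *Nr4a1*, *Nr4a2* and *Nr4a3* windows was 74.4%, 80.0% and 63.6%, beside a median of 52.4% for all. The windows are printed 5′ to 3′ on the strand of the gene, with the short CRE motifs in capitals, since they are what the 3 genes share. None of them holds the full CRE (TGACGTCA), in which both orientations of the short motif overlap and which 1.55% of all windows contain. *Nr4a1* and *Nr4a2* each hold 1 copy of the EGR site (GCGNGGGCG, 4.70% of all windows), and *Nr4a2* alone holds a TATAAA (12.4%) and a MEF2 site (2.92%), which overlap. A match is a description of these letters and not a measured binding site.
Nr4a1 promoter (chr15:101266596-101266845, plus strand): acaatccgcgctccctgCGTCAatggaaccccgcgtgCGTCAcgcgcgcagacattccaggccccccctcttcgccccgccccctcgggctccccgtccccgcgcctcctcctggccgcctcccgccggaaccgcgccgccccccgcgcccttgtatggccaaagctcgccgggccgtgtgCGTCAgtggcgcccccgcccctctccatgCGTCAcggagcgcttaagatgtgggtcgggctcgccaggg
Nr4a2 promoter (chr2:57124004-57124253, minus strand): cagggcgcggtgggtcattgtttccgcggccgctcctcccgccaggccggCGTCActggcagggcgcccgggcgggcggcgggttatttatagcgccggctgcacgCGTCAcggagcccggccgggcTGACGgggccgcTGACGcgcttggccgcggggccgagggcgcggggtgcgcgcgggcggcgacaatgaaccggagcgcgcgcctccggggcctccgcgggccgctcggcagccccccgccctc
Nr4a3 promoter (chr4:48045055-48045304, plus strand): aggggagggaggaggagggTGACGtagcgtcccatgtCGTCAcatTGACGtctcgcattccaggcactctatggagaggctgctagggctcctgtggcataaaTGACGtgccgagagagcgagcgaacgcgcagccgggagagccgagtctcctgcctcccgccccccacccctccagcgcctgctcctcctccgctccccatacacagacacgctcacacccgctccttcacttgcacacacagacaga

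Of the EGR transcripts, *Egr2* and *Egr3* varied more between the libraries than any NR4A transcript, and *Egr1* about as much as *Nr4a3*. *Egr1* (GRCm38 chromosome 18, 34861207 to 34864956) was at 232, 1111, 196 and 944 CPM in replicates 1 to 4, a mean of 621 ± 475 CPM (SD, n = 4). *Egr2* (chromosome 10, 67535499 to 67542188) had 4.74, 150, 3.14 and 28.0 CPM, a mean of 46.5 ± 70.0 CPM, or 12 CPM without replicate 2. *Egr3* (chromosome 14, 70077317 to 70082613) had 55.2, 3.08, 19.5 and 28.0 CPM, a mean of 26.4 ± 21.8 CPM, or 16.9 CPM without replicate 1. *Egr1* and *Egr2* were higher in replicates 2 and 4 than in replicates 1 and 3, whereas *Egr3* was lowest in replicate 2. The labels name no such grouping of replicates. It was read from the values, and the share of all genes divided this way was not counted. The low values rest on few counts, 34 and 14 for *Egr2* in replicates 1 and 3 and 32 for *Egr3* in replicate 2, with exact Poisson intervals (95%, counting error only) of 3.28 to 6.62, 1.72 to 5.27 and 2.11 to 4.35 CPM. These intervals are much narrower than the differences between libraries.

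The highest library exceeded the lowest by 5.67-fold for *Egr1*, 17.9-fold for *Egr3* and 47.8-fold for *Egr2*, and 75.4%, 95.8% and 99.1% of the 8089 genes had a smaller ratio. Single libraries set much of this, as the ratio of *Egr2* was 8.91 without replicate 2 and 31.7 without replicate 3, and that of *Egr3* was 2.83 without replicate 2 and 9.09 without replicate 1. *Egr1* made up 83.7% to 95.4% of the summed EGR TPM of a library. Of the remainder, *Egr3* took most in replicate 1 and *Egr2* in replicate 2, with *Egr3* at 14.8% and *Egr2* at 1.53% in replicate 1, and *Egr2* at 10.8% and *Egr3* at 0.183% in replicate 2. *Egr4*, the other member of the family, had 0 counts in all 4 libraries, which allows at most 0.344 to 0.773 CPM before scaling.

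The RefSeq table lists 5 start sites of *Egr2*. The windows before 3 of them (67537869, 67537870 and 67537930) hold 2 short CRE motifs and 1 CArG box, the site that SRF binds and that 1.47% of all windows contain. These 3 windows overlap (they start at 67537619, 67537620 and 67537680), so the motifs are the same copies and count once. The window before 67537869 is shown with both elements in capitals, the CArG box being the one of 10 bases. The window before the most upstream of these 5 sites (67535499) holds neither, and that before 67537566 holds a CArG box alone. The RefSeq gene begins further upstream, at 67534469, and the window before that position was not examined. At least 2 short CRE motifs were in 3.90% of all windows. The NR4A windows hold no CArG box, and *Egr1* and *Egr3* are not in the table.
Egr2 promoter (chr10:67537619-67537868, plus strand): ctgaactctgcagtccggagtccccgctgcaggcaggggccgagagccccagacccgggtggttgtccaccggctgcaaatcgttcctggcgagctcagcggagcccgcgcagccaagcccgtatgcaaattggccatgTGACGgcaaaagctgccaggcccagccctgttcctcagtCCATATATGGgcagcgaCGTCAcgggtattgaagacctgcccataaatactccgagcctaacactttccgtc

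**Figure D2:**
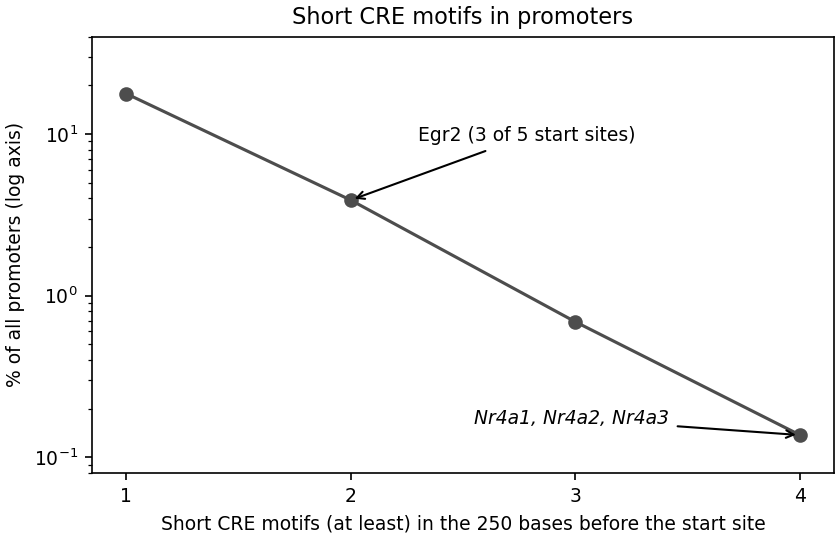
Share of the 32851 RefSeq promoter windows (y axis, log scale) that hold at least 1, 2, 3 or 4 short CRE motifs in the 250 bases before the start site (x axis). *Nr4a1*, *Nr4a2* and *Nr4a3* lie at 4, with 0.137% of all windows, and *Egr2* at 2 for 3 of its 5 start sites, with 3.90%. The windows before those 3 *Egr2* sites overlap and hold the same motifs.

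By mean TPM the order of the 6 genes was *Nr4a1* (870 ± 300.1 TPM, SD, n = 4), *Egr1* (561 ± 452), *Nr4a3* (519 ± 300), *Nr4a2* (68.1 ± 22.0), *Egr2* (40.1 ± 63.1) and *Egr3* (17.6 ± 16). Most neighbours in this order did not differ beyond their spread. The log2 TPM of *Nr4a1* was above that of *Egr1* by 0.998 ± 1.88 (higher in 2 of 4 libraries), that of *Egr1* differed from that of *Nr4a3* by -0.07 ± 2.37 (2 of 4), and that of *Egr2* from that of *Egr3* by 0.13 ± 4.12 (2 of 4). *Nr4a2* exceeded *Egr2* by 2.38 ± 3.04 (3 of 4), and *Nr4a3* exceeded *Nr4a2* by 2.74 ± 0.66 in all 4 libraries. With 4 libraries, an exact sign-flip permutation test (two-sided, paired within library) cannot give a p under 0.125, the value it gave for *Nr4a3* against *Nr4a2* (0.625 after Benjamini-Hochberg adjustment over the 5 pairs); the other 4 pairs gave p of 0.25 to 1 in this exact test. *Egr1* was the highest of all 6 genes in replicates 2 and 4 and the third in replicates 1 and 3. *Egr2* was the lowest in replicates 1 and 3, and *Egr3* in replicates 2 and 4.

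**Figure D3:**
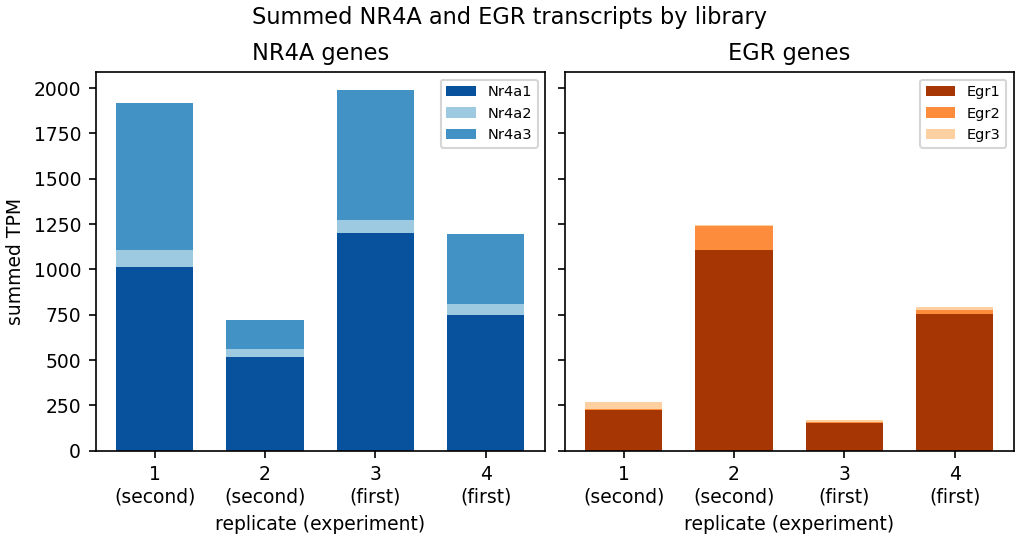
Summed TPM of the NR4A genes (left) and the EGR genes (right) in each library, stacked by gene, with bars from 0 and the experiment below each replicate. NR4A sums are 1920, 721, 1988 and 1198 TPM and EGR sums 269.8, 1243, 169.8 and 793 TPM in replicates 1 to 4, so the EGR bar is taller than the NR4A bar in replicate 2 alone.

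The summed EGR TPM divided by the summed NR4A TPM gave 0.141 and 0.0854 for replicates 1 and 3. Replicates 2 and 4 gave higher ratios, 1.72 and 0.662. Both experiments held 1 library of each kind, so this difference ran within experiments. From replicate 3 to 4 and from replicate 1 to 2, *Egr1* differed by 2.27 and 2.26 log2 units (log2 CPM with a prior count of 2) and *Egr2* by 3.04 and 4.90. The NR4A genes differed in the other direction, *Nr4a1* by -0.69 and -1.01, *Nr4a2* by -0.20 and -1.15 and *Nr4a3* by -0.90 and -2.37, a direction that depends on the scaling, as described after the cell markers. *Egr3* differed by 0.51 and by -4.03. These are differences between single libraries and carry no test. Higher by over 1 log2 unit in both pairs were 2 of the 6 genes, as were 19.0% of the 11689 tested genes (2224), and lower by over 1 log2 unit in both were 0 of the 6, beside 8.08% of the tested genes (945). Lower in both pairs by any amount were the 3 NR4A genes, as were 29.9% of all tested genes (3498), and higher were *Egr1* and *Egr2*, as were 35.2% (4112).

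Cell type markers differed between the same libraries. From replicate 3 to 4 and from replicate 1 to 2, the median of the 10 T and NKT cell markers differed by -1.47 and -1.11 log2 units (6 of 10 lower by over 1 in both), that of the 21 epithelial markers by 5.42 and 3.44 (17 of 21 higher), and that of all tested genes by 0.08 and 0.13. Between replicates 2 and 4, 10 of the 21 epithelial markers were higher in replicate 2, as *Egr1* and *Egr2* were, and 11 in replicate 4. Their sum was higher in replicate 4 with *Lyz1* (29330 against 10378 CPM) and in replicate 2 without it (10038 against 8071 CPM). Of the 6 mast cell markers, *Kit* had 0.836, 63.2, 2.02 and 27.5 CPM, highest in replicates 2 and 4 as *Egr2* was, *Cpa3* had at most 5 counts and the other 4 were at 0. Myeloid markers (10 of 12 detected) summed to 67.7, 82.4, 49.6 and 176 CPM and stromal and endothelial markers (9 of 10) to 140, 42.1, 38.6 and 195 CPM, and B cell markers (5 of 6) to 53.3, 54.2, 1.35 and 3.03 CPM. The part of these cells in the levels of the 6 genes was not tested.

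**Figure D4:**
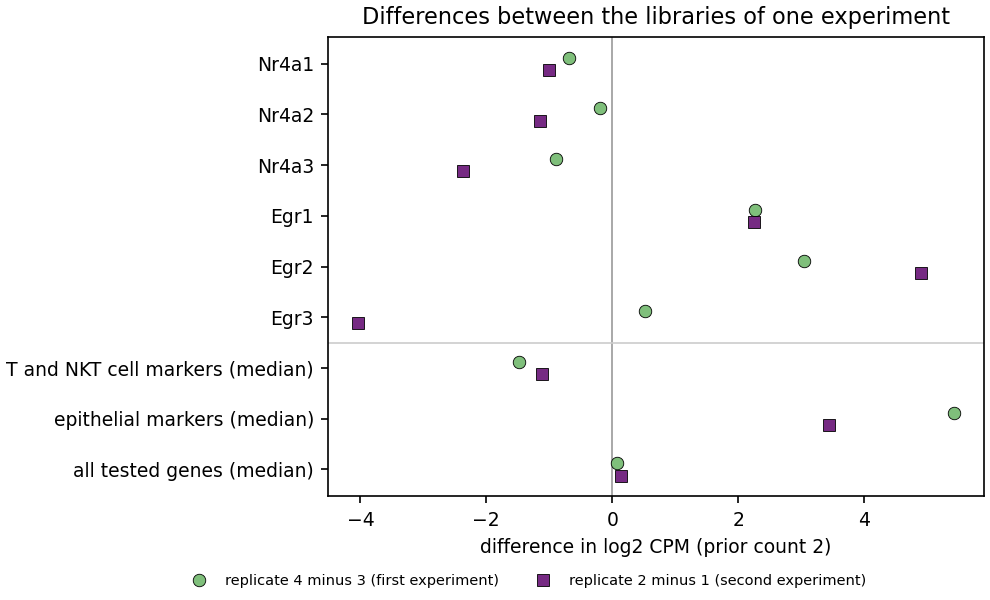
Difference in log2 CPM (x axis, prior count 2) between the libraries of one experiment, replicate 4 minus 3 as circles and replicate 2 minus 1 as squares, for the 6 genes and for the medians of the T and NKT cell markers, the epithelial markers and all tested genes. *Egr1* and *Egr2* lie on the side of the epithelial markers (5.42 and 3.44) and the NR4A genes on that of the T and NKT cell markers (-1.47 and -1.11) under TMM scaling, and *Egr3* is split.

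Relative to T cell transcripts, the picture for the NR4A genes was different. Per 1000 counts on the T and NKT cell markers, *Nr4a1* had 215, 316, 211 and 369 counts in replicates 1 to 4 and *Nr4a2* 27.9, 37, 16.5 and 40.7, so that replicates 2 and 4 were now the higher ones. *Nr4a3* had 465, 267, 340.4 and 517 counts on this scale. *Egr1* had 59.4, 842, 33.9 and 462, and *Egr2* 1.21, 114, 0.544 and 13.7. *Egr3* had 14.1, 2.34, 3.38 and 13.7. Between the highest and the lowest library the ratio was then 1.75 for *Nr4a1*, 2.47 for *Nr4a2* and 1.94 for *Nr4a3*, and 24.8 for *Egr1*, 209 for *Egr2* and 6.04 for *Egr3*. This scaling puts the median difference of all genes with counts in every library at 1.43 and 1.57 log2 units (from replicate 3 to 4 and from 1 to 2). All 3 NR4A differences lay below that median in both experiments. Because the scaling shifts all genes of a library alike, their place relative to the median is the same as under TMM. The share of all genes below the median in both was not counted. Under TMM, 29.9% of the tested genes were lower in both pairs. The direction of *Nr4a2* from replicate 3 to 4 also turned, to 0.14 and 0.0082 log2 units, with library size alone and with library size without the ribosomal precursor *Rn45s*.

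Between the experiments, the 6 genes showed no difference beyond the spread of the libraries. The log2 fold change (second minus first, 2 libraries each) was 2.31 for *Egr2* with a standard error of 1.66, and lay between -0.65 for *Nr4a1* and 0.29 for *Egr3* for the other members, with standard errors from 0.67 to 1.36. All 6 adjusted p-values were 1 (edgeR, quasi-likelihood, adjusted after Benjamini and Hochberg). In this test 0 of the 11689 genes (0.00%) passed an adjusted p of 0.05, 248 (2.12%) had an unadjusted p under 0.05, and DESeq2 called 41 (0.351%), none of them a member. The biological coefficient of variation was 0.976. In counts simulated with this spread the test recovered 0 of the 190 genes changed by 2 log2 units and 0 of the 187 changed by 4. Differences of these sizes were thus not detectable with this spread. The test measures replicate and batch error, since no labelled condition separates the experiments. Plasma cell markers, mostly *Jchain* in the second experiment, summed to 6599 and 7051 CPM there and to 140 and 379 CPM in the first. Whether cell makeup differed was not tested.

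Genes with the pattern most like that of each member were found by the root mean square (RMS) difference of mean-centred log2 CPM over the 4 libraries. Those closest to *Nr4a1* were *Zfp36l1*, which encodes an RNA-binding protein that promotes mRNA decay (0.019 log2 units), *Fem1c* (0.038) and *Tnik* (0.040), and to *Nr4a2* they were *Josd1* (0.018), *Scml4* (0.033) and *Kat6a*, a histone acetyltransferase gene (0.035). For *Nr4a3* they were *Fnbp1* (0.061), *Satb1*, a chromatin organizer of T cells (0.061), and *Rasal3* (0.067). *Egr1* was closest to *Tsc22d1* (0.087), *Gm16982* (0.090) and *Zfp975* (0.12). The genes closest to *Egr3* were *Parp16* (0.12), *Bach1*, which encodes a repressor of haem-responsive genes (0.12), and *Rad9a* (0.14), and those closest to *Egr2* were *Dmpk* (0.15), *Chchd4* (0.21) and *Ccdc3* (0.26), each with 0 counts in at least 1 library. With a prior count of 0.5 in place of 2, 0 of these 3 genes were among the 3 closest to *Egr2*. Within 0.25 log2 units lay 250, 318 and 124 genes for *Nr4a1*, *Nr4a2* and *Nr4a3*, and 32, 2 and 12 for *Egr1*, *Egr2* and *Egr3*, of 11688 genes compared. With 4 libraries that differ in cell type markers, likeness of pattern is a description only.

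Among the members themselves, *Nr4a1* and *Nr4a2* were the closest pair, at 0.27 log2 units, with 2.73% of genes closer to *Nr4a1* than *Nr4a2* was and 3.55% closer to *Nr4a2* than *Nr4a1* was. *Nr4a1* and *Nr4a3* lay 0.49 apart and *Nr4a2* and *Nr4a3* 0.57. *Egr3* lay nearer to *Nr4a3* (0.77) than to *Egr1* (2.37) or *Egr2* (3.47). Of all genes, 17.2% were closer to *Nr4a3* than *Egr3* was and 3.75% closer to *Egr3* than *Nr4a3* was. *Egr3* thus did not follow *Egr1* and *Egr2* over these libraries, and its lowest level, in replicate 2, rests on 32 counts. *Egr1* and *Egr2* were 1.15 apart, with 6.15% of genes closer to *Egr2* than *Egr1* was and 29.8% closer to *Egr1* than *Egr2* was.

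The NAB genes, partners of the EGR proteins, were lowest in replicate 2, the library with the lowest summed T and NKT cell markers. *Nab1*, one of the NAB corepressors that bind EGR proteins, had 205, 37.6, 133 and 55.2 CPM, and *Nab2*, the other, 70.5, 6.26, 36.3 and 24.0 CPM. Both were highest in replicate 1, as were *Egr3* and *Nr4a2*. The shares of all genes that were lowest in replicate 2 or highest in replicate 1 were not counted. These places can therefore not be read as particular to the NAB genes. The exons of *Nab2* share 70 bases with *Stat6* on the opposite strand, and counting ignored strand, so its counts are uncertain, while no exon of the 6 members overlaps another gene. Of the RXR genes, whose products pair with NR4A1 and NR4A2, *Rxra* had 61.6, 48.7, 26.7 and 40.9 CPM, *Rxrb* had 22.6 ± 13.2 CPM (SD, n = 4) and *Rxrg* 0 counts. Of these 6 relatives and partners 4 passed the filter. By over 1 log2 unit in both pairs, 1 (*Nab1*) was lower in replicates 4 and 2 and 0 were higher. The shares of all tested genes were 8.08% and 19.0%. The median differences over the 4 genes were -0.57 and -1.39 (all tested genes, 0.08 and 0.13).

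All 18 genes of the calcium and MAP kinase arm upstream passed the filter, with a median TPM percentile of 78.3. The highest by TPM were *Elk4*, an SRF partner (222 ± 108 CPM), *Nfatc1* (461 ± 346 CPM) and the calcineurin subunit gene *Ppp3r1* (117 ± 66.0 CPM). Lower by over 1 log2 unit in replicates 4 and 2 were *Nfatc1*, *Hdac7* and *Crtc2*, a CREB coactivator (3 of 18), and higher was *Mapk3*, which encodes ERK1, by 1.38 and 1.36 (1 of 18); the shares of all tested genes were 8.08% and 19.0%. The median difference over the 18 genes was -0.63 and -0.80. *Srf* stayed between 43.1 and 63.8 CPM.

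Of the 17 T cell genes linked to EGR factors, 16 passed the filter, 4 lower and 4 higher by over 1 log2 unit in both pairs, beside 8.08% and 19.0% of all tested genes, with median differences of -0.18 and -0.51. The lower ones were *Il2rb* (the IL-2 and IL-15 receptor chain; 1902, 390.3, 3161 and 1286 CPM), *Zbtb16* (211, 49.9, 472 and 176 CPM), *Cblb*, an E3 ligase that restrains T cell activation (703, 296, 772 and 324 CPM), and *Fasl*. The higher ones were *Lag3*, an inhibitory receptor gene with 9.47, 20.7, 0.898 and 8.83 CPM, *Ndrg1* (25.8, 124, 3.81 and 35.8 CPM), *Sema7a* and *Id3*. *Zbtb16* was thus lowest in the library with the most *Egr2*, in which the T and NKT cell markers were lowest too. Of the 12 genes linked to NR4A factors, 10 passed, 3 lower (*Bhlhe40*, *Runx3* and *Ikzf2*) and 1 higher (*Itgae*) in this way (8.08% and 19.0% of all tested genes), with medians of -1.12 and -0.83. *Tox*, which encodes a nuclear factor of exhausted T cells, had 43 ± 15.1 CPM (SD, n = 4), and *Pdcd1*, which encodes PD-1, had 0, 7, 21 and 0 counts. In the edgeR test of the experiments, 0 genes of these lists were called, and 1 of the 16 and 2 of the 10 (*Tigit* and *Ctla4*) had an unadjusted p under 0.05, as had 2.12% of all tested genes.

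Of 27 other immediate early genes 26 passed, with a median TPM percentile of 92.8. By over 1 log2 unit in both pairs, 5 were higher and 2 lower in replicates 4 and 2. These shares are near those of all tested genes, 19.0% and 8.08%. The median difference over the list was 0.07 and -0.44. The higher ones were *Fos* (103, 314, 55.6 and 202.5 CPM), *Jun* (166, 462, 163 and 342 CPM), *Atf3* (24.5, 212, 8.30 and 100.1 CPM), *Klf4* and *Ier3*. *Fosl2*, an AP-1 subunit gene, went the other way, with 2169, 615, 3057 and 1353 CPM, as did the MAP kinase phosphatase gene *Dusp5* (196, 81.0, 416 and 191 CPM). *Dusp1*, another phosphatase of this family, had 824, 284, 802 and 580.3 CPM and *Tnfaip3* (A20), an inhibitor of NF-κB, 2155, 1091, 2338 and 1017 CPM. Heat shock genes can be induced by tissue digestion. The 9 tested were abundant, with a median TPM percentile of 97.6. By mean TPM the highest were *Hspa8* (2832 TPM), *Hsp90ab1* (2124 TPM) and *Dnaja1* (859 TPM). By over 1 log2 unit in both pairs, 0 were higher and 1 (*Dnaja1*) was lower. The shares of all tested genes were 19.0% and 8.08%. The median differences over the list were -1.29 and -0.06. *Hspa1a*, whose counts are uncertain because of its near-identical copy *Hspa1b*, had 264, 182, 436 and 137 CPM. The part of the digestion in these levels was not tested.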

How the data were processed

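RNA-seq counts of 4 SI-LP NKT cell libraries were analysed. Raw counts per gene were deposited by the authors, who counted primary alignments of read pairs on exons with featureCounts 1.6.4, an mm10 RefSeq annotation and no strand option, per the file header. Per the labels' processing notes the build was GRCm38.p6; the paper names HISAT2 and GRCm39, but the deposited coordinates of the members match GRCm38 and are used as given. Of its 6 library columns 4 carry the name of a sample used here, and the other 2 were not used. The deposited gene lengths are another, non-measured column and were used for TPM.

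CPM was computed with TMM factors. The second experiment was tested against the first with edgeR's quasi-likelihood method on genes that had 10 or more counts in 2 or more libraries; DESeq2, other scalings, filters and prior counts and leaving out each replicate were the alternatives. The named genes are the 6 members, the 3 genes closest in pattern to each, *Egr4*, *Nab1*, *Nab2*, the 3 highest of each gene list by TPM, and *Fos*, *Jun*, *Hspa1a*, *Zbtb16*, *Tox*, *Pdcd1* and *Lag3*; other list genes were named after their values were seen, to show which passed 1 log2 unit. The members and lists were chosen with earlier results of these data known. Promoter sequences are RefSeq's, on GRCm38.p6, and matched 4 of the 6 members. The edgeR test was also run on simulated counts, where at a low dispersion (0.05) it found 188 of the 198 genes given a change of 2 log2 units and made 8 false calls. Intervals and the floor of 3 counts cover counting error only, since PCR reads without molecular identifiers are not independent molecules. Computations used scipy 1.17.1, pandas 2.3.3 and numpy 2.4.6 under Python 3.11.15, and edgeR 4.0.16 and DESeq2 1.42.0 under R 4.3.3.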

Additional observations from a re-analysis of the deposited data

Results flagged for a closer look

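Replicate 2 stood apart from the other libraries for *Egr2*, with 150 CPM against 3.14 to 28.0 CPM elsewhere, a gap of 0.831 of the range. Its share of the summed EGR TPM stood apart as well, at 10.8% in replicate 2 against 1.32% to 2.53%, with a gap of 0.872. The gap was 0.857 for *Pdcd1*, which had 21 counts in replicate 3 and at most 7 elsewhere. Of 38 values examined in this way 3 passed Dixon's 95% critical value for 4 samples, where chance gives about 1.9, and the 2 for *Egr2* rest on the same counts.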

How the results depend on the processing

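No paired analysis was possible because the 4 libraries form 1 condition. The count of genes called between the experiments (0) was 41 with DESeq2, 60 without a filter on low counts and between 0 and 7 when a replicate was dropped; the cause was not tested. No member was called in any of these fits. With one replicate left out, the log2 difference between experiments ran from -1.34 to 1.80 for *Egr1*, -1.76 to 4.65 for *Egr2*, -2.91 to 1.19 for *Egr3*, -0.84 to 0.28 for *Nr4a2* and -2.06 to 0.26 for *Nr4a3*, so that the directions rest on single libraries; that of *Nr4a2* was 0.035 with library size alone. The ratio between the highest and the lowest library then ran from 1.61 to 2.91 for *Nr4a1*, 1.31 to 2.23 for *Nr4a2*, 1.86 to 5.58 for *Nr4a3*, 8.91 to 47.8 for *Egr2* and 2.83 to 17.9 for *Egr3*. Scaled to the T cell markers it was 1.75 for *Nr4a1*, 2.47 for *Nr4a2*, 1.94 for *Nr4a3*, 24.8 for *Egr1*, 209 for *Egr2* and 6.04 for *Egr3*. Of the 15 pairs of members, 13 kept their order with CPM in place of TPM, and 13 to 15 when a replicate was dropped. Across the same fits, the log2 TPM difference of *Egr1* and *Nr4a3* ran from -1.03 to 0.63 and that of *Egr2* and *Egr3* from -1.79 to 1.26. Mean CPM (48 alternatives) and percentiles (36) moved by less than their SD, but that SD is wide: the mean of *Egr2* (46.5 CPM) was 12 CPM without replicate 2 and 90.2 CPM scaled to T cell markers, that of *Egr1* (621 CPM) was 976 CPM with the same scaling, and that of *Egr3* (26.4 CPM) was 16.9 CPM without replicate 1. With a prior count of 0.5, 0 of the 3 genes closest to *Egr2* were the same. The lowest counts, 14 for *Egr2* and 32 for *Egr3*, limit the precision of their ratios.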
